A study of Homo sapiens with 12 samples.

Results

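The glycosyltransferases and sulfotransferases that build surface and secreted glycans were examined in SMARCA4 KO and control cells of 2 triple-negative breast cancer (TNBC) cell lines. Members were all genes of the table whose symbol fits a pattern, a rule that uses no expression value but was set with earlier results of these data known: GALNT, B3GNT, B3GALT, B4GALT, A4GALT, ST3GAL, ST6GAL, FUT, MGAT, CHST, CHPF, CHSY, EXT, HS sulfotransferase, NDST and UGCG genes. The expression table held 69 such genes among 11529, in 11 roles: 12 GALNT, 7 B3GNT, 9 galactosyltransferase, 11 sialyltransferase, 5 fucosyltransferase, 6 MGAT, 1 ceramide glucosyltransferase, 3 chondroitin chain, 8 CHST, 3 heparan chain and 4 heparan sulfation genes. Of 117 protein-coding symbols of GENCODE release 44 that fit the same pattern, 68 were in the table, and the others were not analysed here. The remaining member, B3GNT1, is an older symbol that the RefSeq gene table gives for B3GNT2, which has a row of its own, and for B4GAT1. Its values may therefore belong to B4GAT1, and its place among the B3GNT genes is uncertain. RNA was sequenced from 12 samples, 3 control and 3 KO samples of MDA-MB-468 and of MDA-MB-231, labelled wild type and SMARCA4 knock-out. KO cells had been infected with lentiCRISPR-v2 virus carrying Cas9 and a guide against SMARCA4, which encodes the ATPase of the SWI/SNF chromatin remodelling complex, and were kept as polyclonal pools after puromycin selection, so that a KO sample can hold cells with different edits or none. The study's protein blots used a nontargeting vector in control cells, and whether the sequenced controls carried it is not given in the sources used here. No label says that the samples of a group came from separate cultures, so the p-values measure only the spread between these samples, which may be technical.

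Glycosyltransferases of the Golgi add sugars in sequence to proteins and lipids. The GALNT enzymes start mucin-type O-glycans by linking N-acetylgalactosamine to serine or threonine, MGAT enzymes branch N-glycans, B3GNT and B4GALT enzymes extend chains, and sialyl- and fucosyltransferases cap them. A4GALT and ST3GAL5 act on lactosylceramide, the first making globotriaosylceramide (Gb3) and the second the ganglioside GM3. EXT, NDST and HS sulfotransferases build heparan sulfate, and CHPF, CHSY and several CHST enzymes build chondroitin sulfate, on the core proteins of proteoglycans. In breast carcinoma, altered O-glycans on mucins and altered sialylation are long-known features of the cell surface.

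Values are log2(FPKM + 1), where FPKM counts fragments per kilobase of transcript and scales them to the size of the library, so levels can be compared between genes. The table holds no read counts, and the depth behind each value is unknown. A gene was called when the adjusted p of limma with Benjamini-Hochberg adjustment over all 11529 genes was under 0.05 and the absolute log2 difference was over 0.5. SMARCA4 itself fell in KO cells, by 1.16 (MDA-MB-468) and by 1.57 (MDA-MB-231) on the log2 scale. The epithelial genes EGFR, CDH1, EPCAM, KRT5 and KRT6B were each higher in every MDA-MB-468 sample than in every MDA-MB-231 sample, and VIM, AXL, CAV1 and MSN were higher in MDA-MB-231, while CD44, the remaining gene listed for MDA-MB-231, was higher in MDA-MB-468. CD14 was the single gene of the 4 leukocyte and 4 fibroblast markers in the table, at 4.44 or more in MDA-MB-468 samples and 0.84 to 2.56 in MDA-MB-231 samples. CD24, ESR1 and PGR were not in the table, and ERBB2 lay between 4.30 and 4.89.

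In MDA-MB-468 cells 6 of the 69 members were called between KO and control cells (8.7%), against 2.14% of all genes. A4GALT and ST6GALNAC2 rose, where 1.33% of all genes were called higher, and GALNT1, GALNT3, GALNT10 and GALNT14 fell, where 0.815% were called lower. In MDA-MB-231 cells 10 members were called (14.5%), against 3.7% of all genes. GALNT14, ST3GAL5, A4GALT, ST6GALNAC2, MGAT4A and HS3ST1 rose, where 2.39% of all genes were called higher, and GALNT3, GALNT6, ST3GAL6 and CHST2 fell, where 1.31% were called lower. Both lists shared 4 members, of which 3 changed in the same direction (GALNT3, A4GALT and ST6GALNAC2) and 1 in opposite directions (GALNT14), while 0.33% of all genes were called in both. The other 57 members were called in neither cell line. In MDA-MB-468 the KO samples of 11 members lay above and of 16 below all controls, against 17.5% and 13.5% of all genes (31.0% together). In MDA-MB-231 it was 18 above and 14 below, against 16.6% and 19.4% (36.0% together). The median log2 difference over the members was -0.01 (MDA-MB-468) and 0.04 (MDA-MB-231), against 0.02 and -0.01 over all genes, and the median absolute difference was 0.13 and 0.16, against 0.12 and 0.13. The signs of the change were the same in both cell lines for 46.4% of the members and 48.1% of all genes.

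The MDA-MB-468 calls depended on the samples used. Same-numbered control and KO samples of this line correlated weakly in their deviations from the group means (0.25, 0.16 and 0.12). Control replicate 3 and KO replicate 2, which differ in number, reached 0.13. The p numbers in the descriptions of same-numbered samples, whose meaning is not given, are not the same. Whether the samples are paired is therefore uncertain. In the fit blocked on replicate number GALNT3 (adjusted p = 0.049), A4GALT (adjusted p = 0.047) and ST6GALNAC2 (adjusted p = 0.043) were still called, while GALNT1 (adjusted p = 0.052), GALNT10 (adjusted p = 0.050) and GALNT14 (adjusted p = 0.058) were not. Without control replicate 1, 2 or 3 or KO replicate 2 or 3 of MDA-MB-468, 0 members were called by limma, with 15 to 20 members at an unadjusted p under 0.05, and without KO replicate 1 there were 7. Over all 11529 genes, the former fits called 0 to 27, with 2023 to 2573 at an unadjusted p under 0.05. The fit without KO replicate 1 called 474 genes. The log2 differences themselves moved little in those fits, for example between 0.78 and 0.88 for ST6GALNAC2 and between -0.62 and -0.50 for GALNT3. In MDA-MB-231, 2 to 8 members and 99 to 311 of all genes were called when a sample was left out. The 2 members were GALNT3 and CHST2, which were called in all 6 such fits. With a replicate block these 2 were not called (adjusted p = 0.064 and 0.070), nor was any other member or gene of that cell line.

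**Figure D1:**
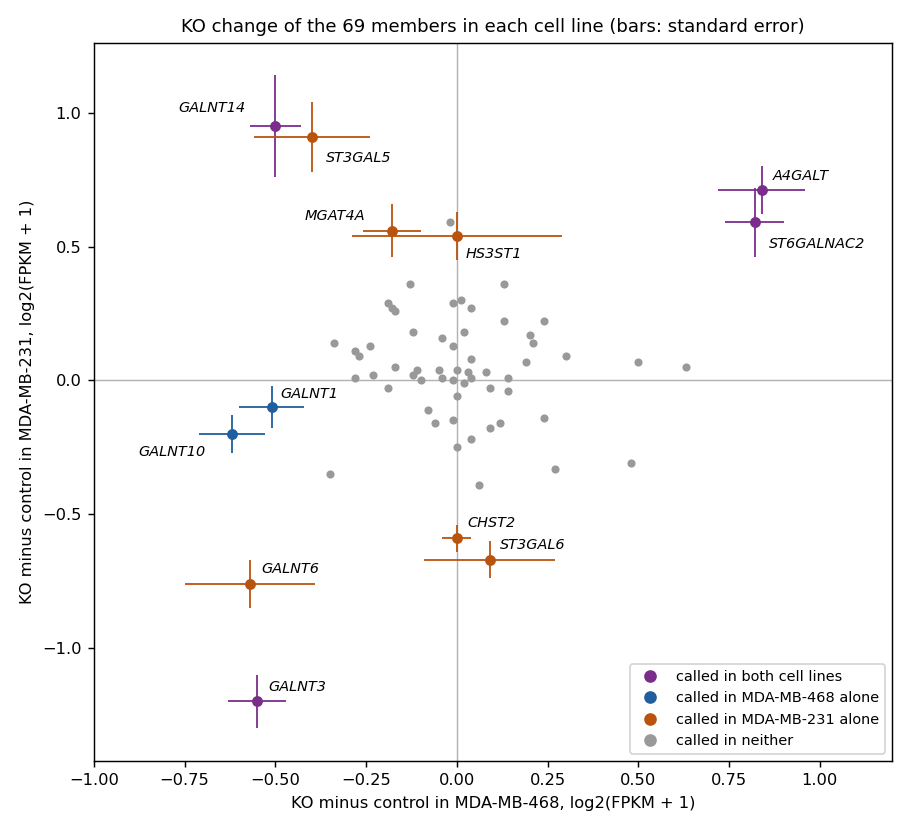
Log2 difference, KO minus control, of each of the 69 members in MDA-MB-468 (horizontal axis) and MDA-MB-231 (vertical axis), in log2(FPKM + 1). Bars are limma standard errors, drawn for called members, and colours give the cell line in which a member was called. A4GALT and ST6GALNAC2 lie above 0 on both axes, GALNT3 below 0 on both, and GALNT14 below 0 in MDA-MB-468 and above 0 in MDA-MB-231.

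GALNT genes made up 4 of the 6 calls in MDA-MB-468, all lower in KO cells. GALNT3, an enzyme that glycosylates FGF23 and mucins, lies at chr2:166604098-166651169 on the minus strand of GRCh37. Its levels in MDA-MB-468 were 5.50, 5.26 and 5.41 in control samples and 4.83, 4.77 and 4.92 in KO samples. All KO samples lay below all control samples, with a log2 difference of -0.55 (standard error 0.08, adjusted p = 0.033, limma) and a mean FPKM at 67.2% of control. In MDA-MB-231, GALNT3 levels were 4.16, 4.25 and 3.90 in control and 2.98, 2.89 and 2.83 in KO samples. The groups were again separate, with a log2 difference of -1.20 (standard error 0.10, adjusted p = 0.0078) and a mean FPKM at 39.8% of control. On the log2(FPKM + 1) scale it was the largest decrease among the members in this cell line, and the only member past an absolute log2 difference of 1. By FPKM ratio ST6GALNAC5, at a low level, fell further there, from a mean of 0.463 to 0.113 FPKM. The fall of GALNT3 was larger in MDA-MB-231 than in MDA-MB-468, by 0.65 on the log2 scale (standard error 0.14, adjusted p = 0.012 for the interaction contrast). In bulk RNA of such pools, fewer cells that express a gene and less RNA per cell cannot be told apart.

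GALNT6, the closest relative of GALNT3, fell in MDA-MB-231, from 3.47, 3.29 and 3.52 in control to 2.78, 2.66 and 2.55 in KO samples (log2 difference -0.76, standard error 0.09, adjusted p = 0.012). In MDA-MB-468 the KO samples, at 3.71, 3.34 and 3.48, also lay below the controls, at 4.40, 4.05 and 3.80, but the difference was -0.57 (standard error 0.18, adjusted p = 0.12). The difference between the cell lines was 0.19 (adjusted p = 0.55). GALNT6 lost its call in MDA-MB-231 without KO replicate 2 (adjusted p = 0.062).

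GALNT14 moved in opposite directions. Its levels in MDA-MB-468 were 3.83, 3.65 and 3.61 in control and 3.19, 3.18 and 3.22 in KO samples, a fall just past the fold limit (log2 difference -0.50, standard error 0.07, adjusted p = 0.032), which was lost in 1 fit of all 12 samples (adjusted p = 0.053). In MDA-MB-231 they were 1.24, 0.84 and 1.36 in control and 1.77, 2.21 and 2.31 in KO samples, a rise of 0.95 (standard error 0.19, adjusted p = 0.039). KO and control samples did not overlap in either cell line, and KO cells of MDA-MB-231 remained below those of MDA-MB-468 in level. The difference between the changes was -1.45 (standard error 0.21, adjusted p = 0.0017) and passed the test in all 12 fits that left out a sample, whereas the calls within each cell line were lost in all 6 of theirs.

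GALNT10 and GALNT1 fell in MDA-MB-468. GALNT10 went from 5.64, 5.58 and 5.43 in control to 5.05, 4.80 and 4.92 in KO samples (log2 difference -0.62, standard error 0.09, adjusted p = 0.033). GALNT1 went from 5.30, 5.08 and 5.01 to 4.67, 4.63 and 4.57 (log2 difference -0.51, standard error 0.09, adjusted p = 0.041). In MDA-MB-231 the differences were -0.20 for GALNT10 and -0.10 for GALNT1, with adjusted p of 0.12 and 0.48. The interaction contrast gave -0.42 for GALNT10 (adjusted p = 0.040) and -0.41 for GALNT1 (adjusted p = 0.049), of which the latter was lost with a replicate block (adjusted p = 0.068) and with a pseudocount of 0.1 (adjusted p = 0.058). Of the 12 fits without a sample, GALNT10 passed in 3 (adjusted p up to 0.098) and GALNT1 in 2 (adjusted p up to 0.11). GALNT7, which acts on peptides that already carry a sugar, differed by -0.35 in each cell line, without overlap of the samples and with adjusted p of 0.077 and 0.059.

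Summed over the 12 GALNT genes, FPKM in MDA-MB-468 was 245.4, 215.6 and 212.0 in control and 171.1, 164.1 and 168.8 in KO samples, so that the KO mean was 74.9% of control. In MDA-MB-231 the sum was 259.1, 282.2 and 269.0 in control and 267.8, 264.9 and 245.2 in KO samples, a mean of 96.0% of control with overlapping samples. GALNT3 made up 18.3% ± 1.2 (SD, n = 3) of the sum in MDA-MB-468 control cells and 16.4% ± 0.8 in KO cells, and 6.03% ± 0.74 and 2.50% ± 0.07 in MDA-MB-231. GALNT2, which differed by 0.04 and 0.27 on the log2 scale (adjusted p = 0.75 and 0.063), made up 12.9% ± 0.8 of the sum in MDA-MB-468 control cells and 17.8% ± 1.8 in KO cells, and 22.5% ± 0.6 and 28.3% ± 0.5 in MDA-MB-231. Summed FPKM of each of the other 10 roles stayed between 85.5% and 124% of control in both cell lines.

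**Figure D2:**
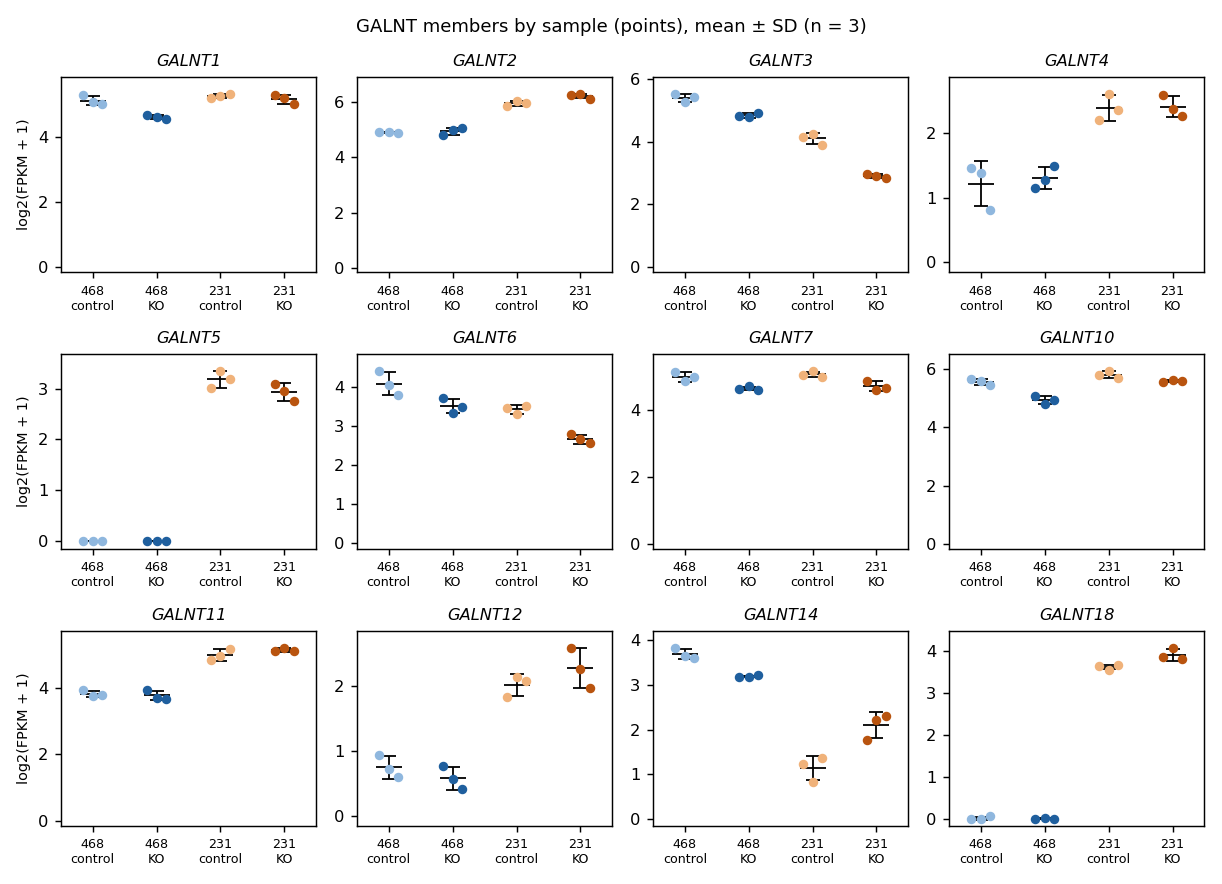
Levels of GALNT genes in each sample, in log2(FPKM + 1), with the mean and SD of each group of 3 samples. GALNT3 is lower in KO than in control samples of both cell lines, and GALNT14 is lower in MDA-MB-468 and higher in MDA-MB-231.

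**Figure D3:**
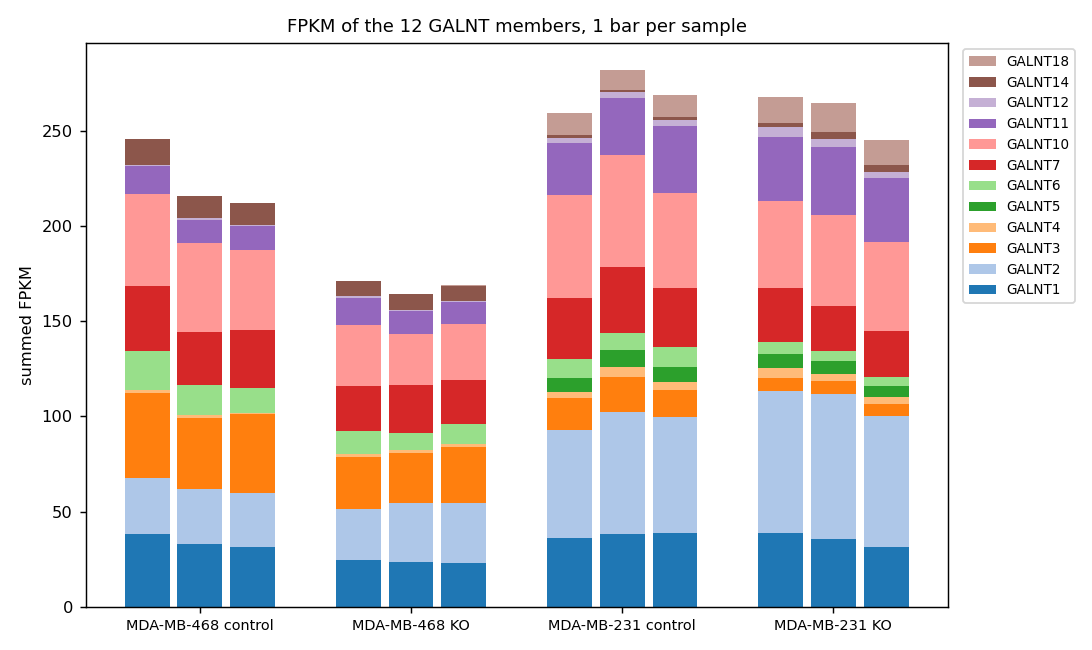
FPKM of the 12 GALNT genes stacked, with 1 bar per sample, the 3 samples of a group side by side. The mean total goes from 224.3 to 168.0 in MDA-MB-468 and from 270.1 to 259.3 in MDA-MB-231, and the mean GALNT3 part of the MDA-MB-231 bars from 6.03% to 2.50%.

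The promoters of GALNT3 and A4GALT are shown because these are the members with a RefSeq promoter that were called in the same direction in both cell lines. Each line gives the 250 bases before a RefSeq start on GRCh38.p14, 5′ to 3′ on the strand of the gene. Capitals mark matches on either strand to the searched motifs: GC box (GGGCGG), AP-1 (TGANTCA), E-box (CACGTG) and TEAD (GGAATG), where GC boxes can overlap each other. The windows lie at chr2:165794248-165794497 for GALNT3, and at chr22:42721302-42721551 and chr22:42720871-42721120 for the upstream and downstream starts of A4GALT, all on the minus strand.
GALNT3: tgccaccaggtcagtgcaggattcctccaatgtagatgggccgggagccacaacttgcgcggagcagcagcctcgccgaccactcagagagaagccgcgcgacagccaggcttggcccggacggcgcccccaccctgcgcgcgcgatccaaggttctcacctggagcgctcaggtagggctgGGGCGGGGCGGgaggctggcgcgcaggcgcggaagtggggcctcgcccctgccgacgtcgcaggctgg
A4GALT, upstream start: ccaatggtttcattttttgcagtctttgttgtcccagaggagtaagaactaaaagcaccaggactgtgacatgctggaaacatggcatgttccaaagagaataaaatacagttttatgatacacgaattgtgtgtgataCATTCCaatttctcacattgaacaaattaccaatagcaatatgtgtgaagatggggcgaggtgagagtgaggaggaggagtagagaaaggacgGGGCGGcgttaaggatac
A4GALT, downstream start: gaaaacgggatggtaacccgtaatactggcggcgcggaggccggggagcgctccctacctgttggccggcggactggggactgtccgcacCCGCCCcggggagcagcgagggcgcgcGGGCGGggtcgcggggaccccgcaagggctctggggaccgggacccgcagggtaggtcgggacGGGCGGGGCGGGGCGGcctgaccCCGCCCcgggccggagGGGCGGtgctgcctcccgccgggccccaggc
The GALNT3 window held 2 GC boxes, the upstream A4GALT window 1 GC box and 1 TEAD motif, and the downstream A4GALT window 7 GC boxes. G and C made up 71.6%, 42.0% and 79.2% of their bases. Among 89 windows of the 55 members that have any, 70.8% held a GC box, 6.74% an AP-1 motif, 5.62% an E-box and 11.2% a TEAD motif, against 42.6%, 6.57%, 6.34% and 11.9% of all 35116 windows. The median GC content was 68.0% in windows of members and 58.0% in all windows. A match is a description of the letters only.

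Among the 9 galactosyltransferases, A4GALT alone was called, in both cell lines. Its levels in MDA-MB-468 were 1.04, 1.04 and 0.86 in control and 2.05, 1.70 and 1.70 in KO samples. The KO samples lay above the controls, by 0.84 on the log2 scale (standard error 0.12, adjusted p = 0.032) or 2.61-fold in mean FPKM. In MDA-MB-231 the levels were 3.34, 3.49 and 3.25 in control and 4.19, 4.05 and 3.98 in KO samples, a rise of 0.71 (standard error 0.09, adjusted p = 0.013) or 1.70-fold in mean FPKM. The interaction contrast, the first change minus the second, was 0.13 (standard error 0.15, adjusted p = 0.59). A4GALT in MDA-MB-468 KO cells was still below every MDA-MB-231 control sample. The MDA-MB-231 call was lost without KO replicate 2 (adjusted p = 0.066).

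The B4GALT genes encode galactosyltransferases of several acceptors: B4GALT7 acts on xylose in the linker of proteoglycans, and most of the others on N-acetylglucosamine or glucosylceramide. B4GALT5, a lactosylceramide synthase, was 5.39, 5.43 and 5.47 in MDA-MB-468 control and 5.09, 5.09 and 5.08 in KO samples, a difference of -0.34 (standard error 0.04, adjusted p = 0.025) that lay under the fold limit. In MDA-MB-231 it was 0.14 (adjusted p = 0.36), with overlapping samples, and the changes differed by -0.48 (adjusted p = 0.018). B4GALT1 differed by -0.18 (MDA-MB-468) and 0.27 (MDA-MB-231), with adjusted p of 0.19 and 0.060, and an interaction of -0.45 (adjusted p = 0.019). B4GALT6, the other lactosylceramide synthase, differed by 0.27 and -0.33 with an interaction of 0.60 (adjusted p = 0.029). UGCG, which makes the glucosylceramide they use, was not called in either cell line (0.30 and 0.09, adjusted p = 0.094 and 0.38).

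Sialyltransferases held 1 call among KO changes of MDA-MB-468 and 3 among those of MDA-MB-231, where 2 more passed the adjusted p and not the fold limit. ST6GALNAC2 adds sialic acid to O-linked N-acetylgalactosamine. Its levels in MDA-MB-468 were 1.95, 1.82 and 1.79 in control and 2.77, 2.56 and 2.70 in KO samples (log2 difference 0.82, standard error 0.08, adjusted p = 0.014), and in MDA-MB-231 1.12, 1.28 and 1.12 in control and 2.01, 1.78 and 1.51 in KO samples (log2 difference 0.59, standard error 0.13, adjusted p = 0.048). KO samples lay above controls in both, at 2.06-fold and 1.93-fold the mean FPKM. The MDA-MB-231 call held in 1 of the 6 fits without a sample, that without KO replicate 3, and adjusted p reached 0.14 in the others.

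ST3GAL5, the GM3 synthase, rose in MDA-MB-231, from 2.38, 2.76 and 2.72 in control to 3.64, 3.58 and 3.37 in KO samples (log2 difference 0.91, standard error 0.13, adjusted p = 0.018). In MDA-MB-468 the levels were 2.22, 1.58 and 1.82 in control and 1.46, 1.43 and 1.53 in KO samples. These KO samples lay below the controls, with a difference of -0.40 (standard error 0.16, adjusted p = 0.20). The changes differed by -1.31 (standard error 0.21, adjusted p = 0.0028), which passed in all 12 fits without a sample. The MDA-MB-231 call was lost without KO replicate 1 or 2 (adjusted p up to 0.082).

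ST3GAL6, which caps N-acetyllactosamine chains, fell in MDA-MB-231 from 3.52, 3.40 and 3.61 in control to 2.88, 2.87 and 2.78 in KO samples (log2 difference -0.67, standard error 0.07, adjusted p = 0.0095). In MDA-MB-468 its levels were between 0.86 and 1.49 in the 6 samples, with a difference of 0.09 (adjusted p = 0.80), and the interaction contrast gave 0.76 (adjusted p = 0.026), which was lost with a pseudocount of 0.1 (adjusted p = 0.10). The MDA-MB-231 call was lost without KO replicate 2 (adjusted p = 0.052). ST3GAL4, the sialyltransferase with the highest mean level (56.4 FPKM over the 12 samples), differed by 0.30 in MDA-MB-231 (adjusted p = 0.019), under the fold limit, and by 0.01 in MDA-MB-468, with an interaction of -0.29 that was lost with a replicate block (adjusted p = 0.075). ST6GALNAC5, which sialylates gangliosides, was 5.31 ± 0.12 (SD, n = 3) in MDA-MB-468 control cells and 5.36 ± 0.08 in KO cells. In MDA-MB-231 it was near the bottom of the scale, at 0.48, 0.58 and 0.59 in control and 0.12, 0.15 and 0.19 in KO samples, a difference of -0.39 (adjusted p = 0.015), with an interaction of 0.45 (adjusted p = 0.019).

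Of the N-glycan branching genes, MGAT4A, which opens the beta-1,4 branch on the core mannose, was the single call. In MDA-MB-231 it rose from 2.36, 2.14 and 2.00 in control to 2.81, 2.71 and 2.65 in KO samples (log2 difference 0.56, standard error 0.10, adjusted p = 0.031). In MDA-MB-468 it was 5.01, 5.21 and 5.05 in control and 4.80, 4.98 and 4.96 in KO samples (difference -0.18, adjusted p = 0.24). The changes differed by -0.73 (standard error 0.14, adjusted p = 0.0061), in all 12 fits without a sample, while the MDA-MB-231 call held in 1 of 6, that without control replicate 1 (adjusted p up to 0.11). MGAT4B, which catalyses the same step, had the highest mean level of all members (147 FPKM) and differed by 0.02 and 0.18. MGAT1, which adds the first branch and is required for complex N-glycans, followed with 69.1 FPKM and differed by 0.09 and -0.03.

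None of the 7 B3GNT and 5 fucosyltransferase genes was called in a KO comparison by limma, where 1 of each had an unadjusted p under 0.05 in MDA-MB-468, and 2 B3GNT genes and 1 fucosyltransferase in MDA-MB-231. Of all 11529 genes, 2899 (MDA-MB-468) and 3596 (MDA-MB-231) had an unadjusted p under 0.05, and 2.14% and 3.7% were called. B3GNT3, which extends core 1 O-glycans, was 0.78, 1.24 and 1.16 in MDA-MB-231 control and 1.72, 1.82 and 1.42 in KO samples (difference 0.59, standard error 0.16, adjusted p = 0.068). It differed by -0.02 in MDA-MB-468, with an interaction of -0.61 (adjusted p = 0.047) that was lost with a replicate block (adjusted p = 0.071) and with a pseudocount of 0.1 (adjusted p = 0.055). FUT8, the core fucosyltransferase of N-glycans, was 2.47, 2.44 and 2.69 in MDA-MB-468 control and 2.74, 3.09 and 3.28 in KO samples, a difference of 0.50 (standard error 0.15, adjusted p = 0.12). In MDA-MB-231 it differed by 0.07.

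**Figure D4:**
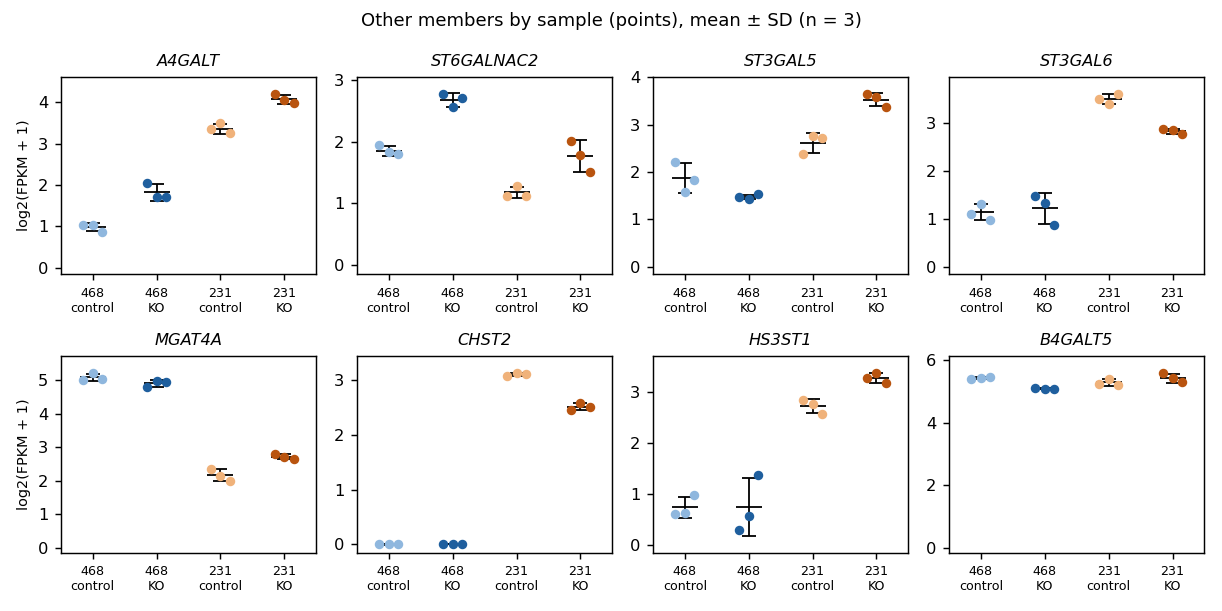
Levels of 8 further members in each sample, in log2(FPKM + 1), with the mean and SD of each group of 3 samples. A4GALT and ST6GALNAC2 are higher in KO samples of both cell lines, ST3GAL5, MGAT4A and HS3ST1 are higher in KO samples of MDA-MB-231, and ST3GAL6 and CHST2 are lower there.

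In the sulfotransferases and proteoglycan chain enzymes, 2 genes were called, both in MDA-MB-231, where 3.7% of all genes were called. They were 1 of the 8 CHST genes (12.5%) and 1 of the 4 heparan sulfation genes (25.0%). CHST2, a 6-O-sulfotransferase of N-acetylglucosamine that takes part in making selectin ligands, fell from 3.07, 3.12 and 3.10 in control to 2.45, 2.58 and 2.50 in KO samples (log2 difference -0.59, standard error 0.05, adjusted p = 0.0078). Its mean FPKM was 62.3% of control. In MDA-MB-468 it was listed at 0 in 5 of the 6 samples and at 0.01 in control replicate 3, so that the interaction of 0.58 (adjusted p = 0.0011) rests on the MDA-MB-231 samples. HS3ST1, which adds the rare 3-O-sulfate needed for antithrombin binding to heparan sulfate, rose from 2.86, 2.78 and 2.58 in control to 3.28, 3.38 and 3.17 in KO samples (log2 difference 0.54, standard error 0.09, adjusted p = 0.026). This call held in 1 of 6 fits, that without control replicate 1 (adjusted p up to 0.099), and was lost in 1 fit of all 12 samples (adjusted p = 0.12). In MDA-MB-468 HS3ST1 was 0.61, 0.63 and 0.99 in control and 0.29, 0.58 and 1.38 in KO samples, with overlapping groups.

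CHST7, a 6-O-sulfotransferase of chondroitin, was 1.37, 1.57 and 1.54 in MDA-MB-468 control and 1.79, 2.03 and 2.09 in KO samples, and 2.89, 2.59 and 2.82 in MDA-MB-231 control and 2.45, 2.50 and 2.44 in KO samples. The differences of 0.48 and -0.31 had adjusted p of 0.060 and 0.073, and KO and control samples did not overlap in either cell line. The interaction of 0.79 (standard error 0.14, adjusted p = 0.0043) passed in all 12 fits without a sample. The chondroitin polymerising factors CHPF and CHPF2 differed by -0.28 and -0.27 in MDA-MB-468 (both adjusted p = 0.062) and by 0.01 and 0.09 in MDA-MB-231. EXT1, a subunit of the heparan sulfate polymerase, was 3.45, 3.55 and 3.36 in MDA-MB-468 control and 3.75, 4.19 and 4.31 in KO samples. KO samples lay above controls, with a difference of 0.63 (standard error 0.16, adjusted p = 0.083). EXT2, the other subunit, differed by -0.08 there. In MDA-MB-231 the differences were 0.05 for EXT1 and -0.11 for EXT2.

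The interaction contrast, the KO change in MDA-MB-468 minus that in MDA-MB-231, passed for 20 members (29.0%), 8 with the higher and 12 with the lower change in MDA-MB-468, against 14.7% of all genes (7.91% higher and 6.83% lower). Over all genes it was higher for 912 of 1699, and with samples scaled to the same 75th percentile of FPKM for 671 of 1612, so the split depends on the scaling. Besides those named, the 20 held B3GALT6, CHPF, CHPF2, CHST14, CHST15 and ST3GAL4, with values between -0.49 and 0.38. With a replicate block 7 of the 20 were lost: GALNT1, B3GNT3, B3GALT6 (adjusted p = 0.095), CHPF (adjusted p = 0.078), CHST14 (adjusted p = 0.079), CHST15 (adjusted p = 0.059) and ST3GAL4 (adjusted p = 0.075). CHPF was also lost with a pseudocount of 0.1 (adjusted p = 0.053), and B3GALT6 and CHST14 with samples scaled to the same 75th percentile (adjusted p = 0.069 and 0.061). The 8 that passed in all 12 fits without a sample were GALNT3, GALNT14, ST3GAL5, MGAT4A, CHST2, CHST7, B4GALT5 and ST6GALNAC5. The other 12 passed in 1 to 10 of those fits and were lost, among others, in that without MDA-MB-231 KO replicate 2, which left 8 members.

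Control cells of the cell lines were compared to give the level each KO change started from. The control samples also enter the KO comparisons, and cell line and culture cannot be told apart. The authors had removed genes with a mean or SD of FPKM under 1, which keeps genes that differ between the lines. Members listed at 0 in all samples of 1 cell line (FUT9, GALNT5 and CHST10) entered only through the other. The same holds for members with a mean FPKM under 1 in both control and KO cells of 1 line. In MDA-MB-468 these were CHST2, GALNT18, HS3ST3B1, MGAT5B, B3GNT8, FUT4, GALNT12 and HS3ST1, and in MDA-MB-231 FUT3, ST6GAL1 and ST6GALNAC5. The shares below, of members and of all genes, are therefore partly set by that filter. Here 58 members were called (84.1%), 21 higher and 37 lower in MDA-MB-468, against 64.1% of all genes (32.7% higher and 31.4% lower). The samples of the cell lines did not overlap for 22 members higher and 40 lower, against 43.2% and 42.3% of all genes (85.5% together). The median log2 difference was -0.62 over members and 0.01 over all genes, and the median absolute difference 1.23 and 0.73. All 11 sialyltransferases were called, 6 higher and 5 lower in MDA-MB-468, and of the 8 CHST genes 7 were called, all lower. Among these, ST6GAL1 and ST6GALNAC5 passed the filter only through MDA-MB-468, and CHST2 and CHST10 only through MDA-MB-231. Of the 6 members called between KO and control cells of MDA-MB-468, A4GALT had the lowest level in the controls, at 10.5% of its mean FPKM in MDA-MB-231.

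By log2 difference on the log2(FPKM + 1) scale, the 5 called members furthest above MDA-MB-231 in MDA-MB-468 control cells were ST6GALNAC5, B3GNT3, ST6GAL1, FUT3 and MGAT4A. Of these, ST6GALNAC5, ST6GAL1 and FUT3 passed the authors' filter only through MDA-MB-468. ST6GAL1, which adds alpha-2,6 sialic acid to N-glycans, was 4.73, 4.60 and 4.46 in MDA-MB-468 control and 0.39, 0.36 and 0.45 in MDA-MB-231 control samples, 72.6-fold apart in mean FPKM. B3GNT3 was 43.2-fold and MGAT4A 9.45-fold higher. ST6GALNAC5 was 83.6-fold higher. FUT3, the Lewis fucosyltransferase, was 4.15, 3.83 and 3.73 in MDA-MB-468 and was listed at 0 in all MDA-MB-231 control samples, as was FUT9, at 2.06, 2.01 and 2.02 in MDA-MB-468. FUT3 has near-identical neighbours, FUT5 and FUT6, so its value is uncertain.

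By the same log2 difference, the 5 furthest below MDA-MB-231 were GALNT18, FUT8, GALNT5, CHST10 and CHST2. That scale understates the folds of genes near 0, so an order by FPKM ratio would differ. Of the 5, GALNT18, GALNT5, CHST10 and CHST2 passed the authors' filter only through MDA-MB-231. FUT8 in MDA-MB-468 control cells was at 8.25% of its mean FPKM in MDA-MB-231, with a log2 difference of -3.35 (standard error 0.09, adjusted p = 1.5e-08). GALNT5 was listed at 0 in all 6 MDA-MB-468 samples and was 3.01, 3.34 and 3.19 in MDA-MB-231 control samples. CHST10, which sulfates the HNK-1 carbohydrate, was likewise listed at 0 in all MDA-MB-468 samples and was 3.20, 3.02 and 3.13 in MDA-MB-231. GALNT18 was listed at 0, 0 and 0.07 in MDA-MB-468 and was 3.63, 3.55 and 3.66 in MDA-MB-231. Over all genes, 148 were listed at 0 in all 3 MDA-MB-468 control samples and 143 in all 3 MDA-MB-231 control samples. B4GALT2 (55.2 FPKM over the 12 samples, 0.21), MGAT1 (69.1 FPKM, 0.14) and GALNT7 (-0.08) were among the 11 members not called between the cell lines.

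**Figure D5:**
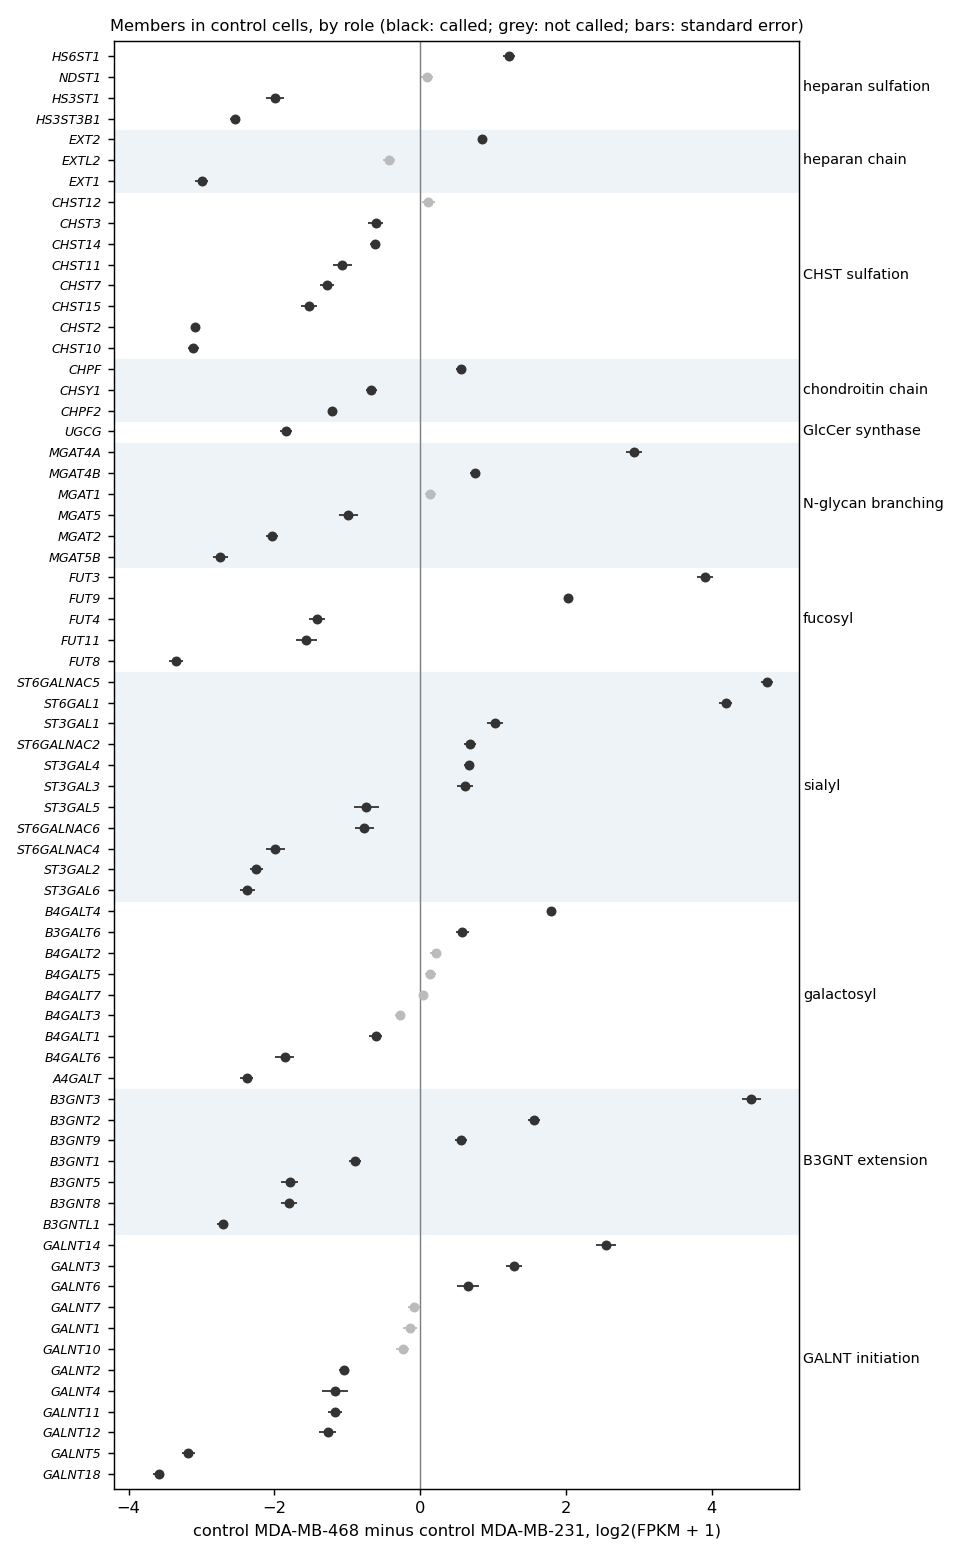
Log2 difference of each member between control cells, MDA-MB-468 minus MDA-MB-231, in log2(FPKM + 1), by role. The 58 called members reach from -3.59 (GALNT18) to 4.76 (ST6GALNAC5), and the CHST genes called all lie below 0.

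The other genes of these pathways were read from lists of transferases outside the symbol pattern, of enzymes and transporters that supply activated sugars and sulfate, of proteoglycan core proteins, of mucins and of enzymes that remove sugars. Among 25 further transferases in the table, MDA-MB-468 had 2 calls (8.0%, against 2.14% of all genes) and MDA-MB-231 had 1 (4.0%, against 3.7%). LFNG, a Notch-modifying N-acetylglucosaminyltransferase, rose by 0.66 (adjusted p = 0.020), B3GALNT1, the globoside synthase that acts on the product of A4GALT, fell by 0.61 (adjusted p = 0.014), and in MDA-MB-231 CSGALNACT1, which starts chondroitin chains, rose by 0.51 (adjusted p = 0.017). B3GALNT1 in MDA-MB-231 differed by -0.29 (adjusted p = 0.20). Among 37 supply genes, MDA-MB-468 had 2 calls (5.41%) and MDA-MB-231 had 0 by limma, against the same shares of all genes. At an unadjusted p under 0.05 there were 13 and 15 supply genes, where 2899 and 3596 of all 11529 genes passed. GFPT2, an isoform of the enzyme that commits fructose 6-phosphate to hexosamine synthesis, rose from 0.72, 1.06 and 1.27 in MDA-MB-468 control to 1.90, 2.12 and 2.48 in KO samples (log2 difference 1.15, standard error 0.20, adjusted p = 0.044). SLC35C1, the Golgi GDP-fucose transporter, fell from 4.36, 4.42 and 4.32 to 3.88, 3.70 and 3.75 (log2 difference -0.59, standard error 0.06, adjusted p = 0.019). The 4 MDA-MB-468 calls among these genes were lost without control replicate 1, 2 or 3 or KO replicate 2 or 3 of that line, and CSGALNACT1 without control replicate 1 or any KO replicate of MDA-MB-231 (adjusted p up to 0.077).

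Of the proteins that carry these glycans, 13 proteoglycan cores and 3 mucins were in the table. Each cell line had 2 called cores (15.4%), and 0 (MDA-MB-468, 1 at an unadjusted p under 0.05) and 1 (MDA-MB-231) of the mucins were called by limma, against 2.14% and 3.7% of all genes. The glypicans GPC1 and GPC4 rose in MDA-MB-468, by 0.64 (adjusted p = 0.045) and 0.54 (adjusted p = 0.016). In MDA-MB-231 HSPG2, which encodes perlecan, rose by 0.74 (adjusted p = 0.022), and SRGN, which encodes serglycin, fell by 0.63 (adjusted p = 0.040). GPC4 was at 0.03 or less in MDA-MB-231, and SRGN at 0.08 or less in MDA-MB-468. Without overlap of the samples, 3 cores were higher and 2 lower in KO cells of each cell line. Of these, SDC1 was not called in MDA-MB-468, at 7.31 or more in control and 6.95 or less in KO samples. Likewise, SDC2 was not called in MDA-MB-231, at 4.05 or more in control and 3.85 or less in KO samples. MUC1, a membrane mucin of epithelial cells, was 3.61, 4.68 and 4.62 in MDA-MB-231 control and 5.89, 5.94 and 5.45 in KO samples, a rise of 1.45 (standard error 0.32, adjusted p = 0.046). In MDA-MB-468 it was 7.89, 7.73 and 7.78 in control and 7.71, 7.04 and 7.10 in KO samples (difference -0.52, adjusted p = 0.17), and the changes differed by -1.97 (adjusted p = 0.0066). Among 20 genes for glycan removal, 0 were called by limma in MDA-MB-468, with 8 at an unadjusted p under 0.05, and 2 of 20 in MDA-MB-231, against the same 2.14% and 3.7% of all genes. There MAN1A1, a Golgi mannosidase of N-glycan trimming, fell by 0.80 (adjusted p = 0.0051), and GALNS, a lysosomal sulfatase, rose by 0.56 (adjusted p = 0.0097). Both were called in all 6 fits without a sample and lost with a replicate block (adjusted p = 0.064 and 0.074). MUC1 was called in 1 of 6, that without control replicate 1 (adjusted p up to 0.14 in the others), HSPG2 in 2, those without control replicate 2 or KO replicate 3 (adjusted p up to 0.093), and SRGN in 0 of 6 (adjusted p up to 0.13). GPC1 and GPC4 were lost in the same 5 fits of MDA-MB-468 samples as A4GALT, and GPC4 also with a replicate block (adjusted p = 0.050).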

How the data were processed

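Per the study's methods, reads were trimmed with Trimmomatic, aligned with STAR to hg19 and quantified with RSEM, whose fractional estimates may split reads between near-identical genes. The authors removed genes with a mean or SD of FPKM under 1, which favours genes that differ between samples, and deposited log2(FPKM + 1) values of 11529 genes in 12 samples. In 18 rows a date replaces the symbol. They stayed in the tests.

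The deposited values were fitted with limma 3.58.1 in R 4.3.3 (eBayes without trend), 3 KO against 3 control samples in each cell line. Control cells of the cell lines were compared in the same way, and the KO changes by the interaction contrast over all 12 samples. P-values were adjusted over all 11529 genes by the Benjamini-Hochberg method, with calls at an adjusted p under 0.05 and, except for the interaction, an absolute log2 difference over 0.5. On simulated data with 200 genes changed by 1.5 on the log2 scale, 197 were called in each KO comparison, with 5 (MDA-MB-468) and 4 (MDA-MB-231) false calls. The largest KO change of a called member was -1.20, for GALNT3 in MDA-MB-231, and changes of that size or less were not simulated.

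Members and gene lists were chosen with earlier results of these data known. Named were called members, up to 12 with a different KO change between the cell lines, the 5 highest and 5 lowest between the lines, the 5 of highest FPKM, the member of smallest p per role, called list genes, MGAT4A and SMARCA4. GALNT2, GALNT7, B3GALT6, CHPF, CHST14, CHST15 and FUT9 were added to complete a description after their values were seen. The main fits treated the samples as unpaired, and the replicate block was an alternative. Same-numbered control and KO samples, numbered in the titles, correlated in their deviations from the group means at 0.25, 0.16 and 0.12 in MDA-MB-468, and at -0.05, 0.07 and -0.11 in MDA-MB-231. Control replicate 3 and KO replicate 2 of MDA-MB-468 reached 0.13, so the basis for a pairing is weak. The descriptions also carry a p number, 26, 27 and 28 in control and 25, 26 and 27 in KO samples of MDA-MB-468, so that the pairs by title differ in it, and the 2 pairs that share one correlated at -0.23 and 0.03. In MDA-MB-231 p numbers and title numbers match. The block used the title numbers. Positions are from GENCODE 44 on GRCh37 and promoters from RefSeq on GRCh38.p14. Alternatives were a pseudocount of 0.1, a filter on low values, an intensity trend, scaling to the 75th percentile, a replicate block, 1 fit of all samples, a fold limit of 1 and leaving out each sample.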

Additional observations from a re-analysis of the deposited data

Results flagged for a closer look

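The change from control to KO cells differed between MDA-MB-468 and MDA-MB-231, by the interaction contrast of limma at an adjusted p under 0.05, for 20 of the 69 members. The values below are the log2 change in MDA-MB-468 minus that in MDA-MB-231. Among the GALNT genes the difference was -1.45 for GALNT14, -0.42 for GALNT10, -0.41 for GALNT1 and 0.65 for GALNT3. For galactosyltransferases it was -0.48 for B4GALT5, -0.45 for B4GALT1, 0.60 for B4GALT6 and 0.38 for B3GALT6. For sialyltransferases it was -1.31 for ST3GAL5, -0.29 for ST3GAL4, 0.76 for ST3GAL6 and 0.45 for ST6GALNAC5. The N-glycan branching gene MGAT4A differed by -0.73 and the chain-extending gene B3GNT3 by -0.61. For sulfotransferases the values were 0.79 for CHST7, 0.58 for CHST2, 0.29 for CHST14 and -0.49 for CHST15, and for the chondroitin polymerising genes -0.29 for CHPF and -0.36 for CHPF2. With a replicate block the difference no longer passed for GALNT1, B3GNT3, B3GALT6, CHPF, CHST14, CHST15 and ST3GAL4, and with a pseudocount of 0.1 for GALNT1, B3GNT3, CHPF and ST3GAL6. B3GALT6 and CHST14 were also lost with samples scaled to the same 75th percentile. Only GALNT3, GALNT14, ST3GAL5, MGAT4A, CHST2, CHST7, B4GALT5 and ST6GALNAC5 passed in all 12 fits that left out a sample. GALNT14 was the single member called in both cell lines in opposite directions.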

How the results depend on the processing

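No called value changed direction under any alternative tried. Over the members and other genes named, 2135 results under an alternative kept their side of the threshold, 233 were no longer past it and 23 came to pass it. In MDA-MB-468 the 6 calls became 3 with a replicate block and 0 with a log2 difference over 1 (20 members and 2899 of all genes at an unadjusted p under 0.05), and 0 to 7 when a sample was left out. In MDA-MB-231 the 10 calls became 1 with a log2 difference over 1 and 2 to 8 without a sample. Same-numbered samples of MDA-MB-231, whose title and p numbers match, correlated at -0.05, 0.07 and -0.11. With a replicate block this cell line had 0 calls by limma among the members and over all genes, with 26 members and 3126 of all genes at an unadjusted p under 0.05. The interaction passed for 8 to 18 members without a sample and for 14 with a replicate block, 13 of them among the 20. The comparison of control cells gave 57 or 58 members without a sample. Over all genes, 1 fit of all 12 samples called 537 in MDA-MB-468 against 247, a filter on a mean log2 value over 2 called 400, and fits without a sample called 0 to 474 there and 99 to 311 in MDA-MB-231 against 426. A log2 difference over 1 left 53 and 85. The causes were not tested. Depth is unknown, and values near 0 on this scale understate folds.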
